A study of Drosophila melanogaster with 2 samples.

Results

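The mRNAs described here encode 9 factors that shorten, bind or lengthen the poly(A) tail of messenger RNA. They are *Not1*, *Rga* (also Not2), *l(2)NC136* (also Not3, the name used in the deposited table), *Cnot4*, *twin*, *Pop2*, *pAbp*, *wisp* and *hrg*, and they were found by name or synonym among the 16863 genes of the table. The values are RNA levels in an ME31B immunoprecipitate, from 1 library, and in the input lysate it was taken from, also 1 library. Both come from stage 14 oocytes, the mature oocytes of *Drosophila melanogaster*, of a strain labelled eGFP-Me31B on a w1118 background. The study describes this fusion as a trap allele expressed from the endogenous locus, yet its methods name w1118 flies without the tag for the oocyte isolation. No antibody is given in the label of the immunoprecipitate, and its protocol mentions both anti-GFP and IgG. Reading it as the anti-GFP library follows the methods and not the label. The purpose given by the study was to learn whether the binding of ME31B to transcripts changes at egg activation, and the 2 libraries used here cover only the stage before it. RNA recovered on control IgG beads was not analysed here, and nonspecific recovery is part of each value.

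ME31B is the fly orthologue of DDX6, a DEAD-box helicase that represses translation and promotes mRNA decay. CCR4-NOT is the main deadenylase complex of the cytoplasm, and it is built on the large scaffold protein NOT1, to which human DDX6 binds directly. A mature oocyte makes no new mRNA, and its stored transcripts are switched on or off in part through their tails. Deadenylases shorten the tails and a cytoplasmic poly(A) polymerase lengthens them. The study reports altered ME31B binding at egg activation as another route, independent of tail length though related to it. The mRNAs for this machinery were measured here in lysates of such oocytes, and whether each is itself a stored transcript was not tested.

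Values are FPKM, that is, fragments scaled to transcript length and library size, so that levels can be set side by side between genes. Occupancy is the FPKM in the immunoprecipitate divided by the FPKM in the input. It is given on a log2 scale relative to the median of the 6886 genes that passed a minimum of 0.5 FPKM in both libraries, whose occupancy was 1.26. There are no replicates, so no p-value was computed, and a factor of 2 from the median gene served as a fixed rule of size. Read depth is unknown, so no counting interval could be attached. All 9 mRNAs were above 0.5 FPKM in both libraries. Of 10 germline and oocyte markers all were above that minimum, from 11.4 to 13967 FPKM in the immunoprecipitate and from 12.4 to 12458 FPKM in the input. Of 11 follicle cell markers 10 were above it, with a sum over the list of 497 FPKM in the immunoprecipitate and 863 FPKM in the input, led by *Cp15* at 309 FPKM in the immunoprecipitate and 520 FPKM in the input. Of 7 markers of muscle, neurons and fat body 1 was above it, and *Act88F*, *elav*, *nSyb* and *Fbp1* were listed at 0 in both libraries. The follicle cell markers were not all low. In the input *Cp18*, *Cp16*, *Cp19* and *Cp36* had 105, 86.0, 67.9 and 56.9 FPKM, above the median gene at 34.4 FPKM. *Cp38* had 20.5 FPKM there, and the *Vm* and *Yp* genes had at most 2.00 FPKM. In these bulk lysates, the number of follicle cells and the RNA per follicle cell cannot be told apart. What part of the 9 mRNAs came from follicle cells was not tested.

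The mRNAs of the tail factors differed widely in level, with *Not1* and *hrg* below the median gene in both libraries and *pAbp* far above it. In the immunoprecipitate they spanned 6.55 to 322 FPKM, beside a median of 42.7 FPKM over the 6886 genes there. In the input they spanned 20.7 to 447 FPKM, beside a median of 34.4 FPKM. *pAbp* was the highest and *Not1* the lowest in both libraries. The 9 mRNAs summed to 870 FPKM in the immunoprecipitate and 921 FPKM in the input, and *pAbp* alone held 37.1% of the sum in the immunoprecipitate and 48.5% in the input. Without *pAbp* the sum was 547 FPKM in the immunoprecipitate and 474 FPKM in the input, so that the total of the other 8 was the larger in the immunoprecipitate. FPKM summed over all genes was also larger in the immunoprecipitate. The 9 mRNAs were 0.0768% of that sum in the immunoprecipitate and 0.0859% in the input.

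**Figure D1:**
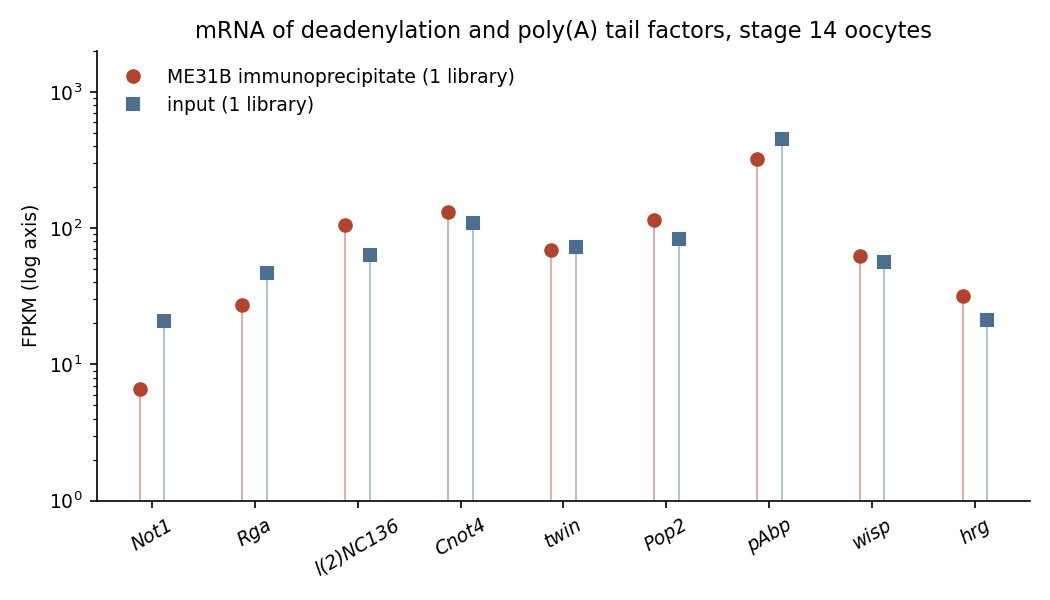
FPKM (log axis) of the 9 mRNAs in the ME31B immunoprecipitate (circles) and in the input (squares), 1 library each, with no error bars because there are no replicates. *Not1* shows the widest gap, at 6.55 FPKM in the immunoprecipitate and 20.7 FPKM in the input, and *pAbp* is the highest in both.

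The mRNA of the scaffold had the lowest occupancy of the set. *Not1*, at 2R:9566146-9579007 of Release 6 (dm6), had 6.55 FPKM in the immunoprecipitate and 20.7 FPKM in the input. Its occupancy was 0.316, or −1.998 relative to the median gene, a factor of 4.00 below it, and 2.74% of the 6886 genes were lower. *Rga*, at 3R:5607275-5613112, encodes NOT2, which joins NOT3 on the C-terminal part of the scaffold. It had 27.3 FPKM in the immunoprecipitate and 47.2 FPKM in the input, which placed it at −1.13, with 12.5% of genes lower. *Not1* was past the 2-fold rule under each alternative tried, whereas *Rga* was not when genes of similar span served as the centre (−0.66), without centring, with both libraries scaled to the same sum, without a filter, or by a 3-fold rule. The *Not1* span overlaps that of CG1814, which had 12.0 FPKM in the immunoprecipitate and 8.33 FPKM in the input, and the spans of *Rga*, *l(2)NC136* and *twin* also overlap other genes. Whether reads were shared was not tested.

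The mRNA of the third protein of this module stood at the other end. *l(2)NC136*, which encodes NOT3, the partner of NOT2, lies at 2R:5656406-5663222. It had 105 FPKM in the immunoprecipitate and 63.3 FPKM in the input, at 0.39 relative to the median gene, the highest of the 9. Its level was 16.0 times that of *Not1* in the immunoprecipitate and 3.05 times in the input, a 5.24-fold difference between the libraries that does not depend on how they were scaled. Against *Rga* the ratio was 3.84 in the immunoprecipitate and 1.34 in the input, a 2.86-fold difference. Relative to the median gene, the mRNAs for the 3 proteins of this module thus spanned the whole range of the set in these 2 libraries. Against genes of similar input FPKM they did not, with *hrg* at 0.44 and *l(2)NC136* at 0.09.

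The mRNAs of the nucleases lay close to the median gene. *twin*, at 3R:24196893-24221965, encodes the deadenylase CCR4, and *Pop2*, at 3L:11998398-12002915, encodes CAF1, the other nuclease of the complex, through which CCR4 is tethered to the scaffold. *twin* had 68.6 FPKM in the immunoprecipitate and 72.7 FPKM in the input, at −0.42 relative to the median gene. *Pop2* had 114 FPKM in the immunoprecipitate and 83.4 FPKM in the input, at 0.12. The ratio of *Pop2* to *twin* was 1.66 in the immunoprecipitate and 1.15 in the input, so that the 2 nuclease mRNAs differed by a factor of 1.45 in occupancy. Neither passed the 2-fold rule, and the sign of each depended on the centre: *twin* was at 0.18 against genes of similar span and *Pop2* at −0.12 against genes of similar input FPKM.

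*Cnot4*, at 2L:10396716-10403206, encodes a RING ubiquitin ligase that associates with the complex. Its mRNA had 131 FPKM in the immunoprecipitate and 109 FPKM in the input, the second highest level of the set in both, at −0.06 relative to the median gene. The span of *Cnot4* overlaps those of CG17768 and *LSm-4*, whose occupancies were higher, at 0.95 and 2.63 relative to the median gene. CG17768 had 431 FPKM in the immunoprecipitate and 177 FPKM in the input, and *LSm-4* had 105 FPKM in the immunoprecipitate and 13.4 FPKM in the input. Whether the 3 genes share reads was not tested.

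*pAbp*, at 2R:18140078-18147191, encodes the cytoplasmic poly(A) binding protein, which coats the tail and couples it to translation initiation. Its mRNA had 322 FPKM in the immunoprecipitate and 447 FPKM in the input, and 96.2% of genes had less in the input. It was nevertheless the third lowest of the set in occupancy, at −0.81, or a factor of 1.75 below the median gene, with 20.1% of genes lower. Against genes of similar input FPKM it was at −1.004 and passed the 2-fold rule. The small nucleolar RNAs *snoRNA:Psi18S-1347a*, *snoRNA:Psi18S-1347b* and *snoRNA:Psi18S-1347c* lie within the *pAbp* span. They had 0, 19.9 and 92.3 FPKM in the immunoprecipitate and 12.1, 10.4 and 38.4 FPKM in the input.

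The polymerases that build tails are encoded by *wisp* and *hrg*. *wisp*, at X:11893943-11899920, encodes the GLD-2 type cytoplasmic poly(A) polymerase of the female germline, which lengthens tails late in oogenesis and at egg activation. Its mRNA had 62.7 FPKM in the immunoprecipitate and 56.7 FPKM in the input, at −0.19 relative to the median gene. *hrg*, at 2R:19663919-19669832, encodes the canonical nuclear poly(A) polymerase, which adds the first tail after cleavage. It had 32.0 FPKM in the immunoprecipitate and 21.2 FPKM in the input, at 0.26, the second highest occupancy of the set although its input level was the second lowest. The ratio of *hrg* to *wisp* was 0.510 in the immunoprecipitate and 0.374 in the input, a difference of 1.36-fold. *Gld2*, the paralog of *wisp*, was at 0.019 FPKM in both libraries, below the minimum.

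From high to low, occupancy ran *l(2)NC136*, *hrg*, *Pop2*, *Cnot4*, *wisp*, *twin*, *pAbp*, *Rga* and *Not1*, over a range of 2.39 on the log2 scale, or 5.24-fold. With no replicates it is not known which neighbours in this order differ. Most alternatives shift all 9 values alike or change only the rule of size, so they could not change the order. The pseudocounts and centring on genes of similar span left the order as it was. Centring on genes of similar input FPKM put *hrg* ahead of *l(2)NC136*. The median of the 9 was −0.19, beside 0 for all genes by construction, and 3 lay above and 6 below the median gene. On the scale without centring, where *Cnot4* and *wisp* changed sign, 5 were higher in the immunoprecipitate and 4 higher in the input, and the median turned positive, at 0.14. By the 2-fold rule none was above and 2, *Not1* and *Rga*, were below (22.2%), beside 9.48% of the 6886 genes above and 15.2% below. With 9 genes, 2 below is a share near this background.

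**Figure D2:**
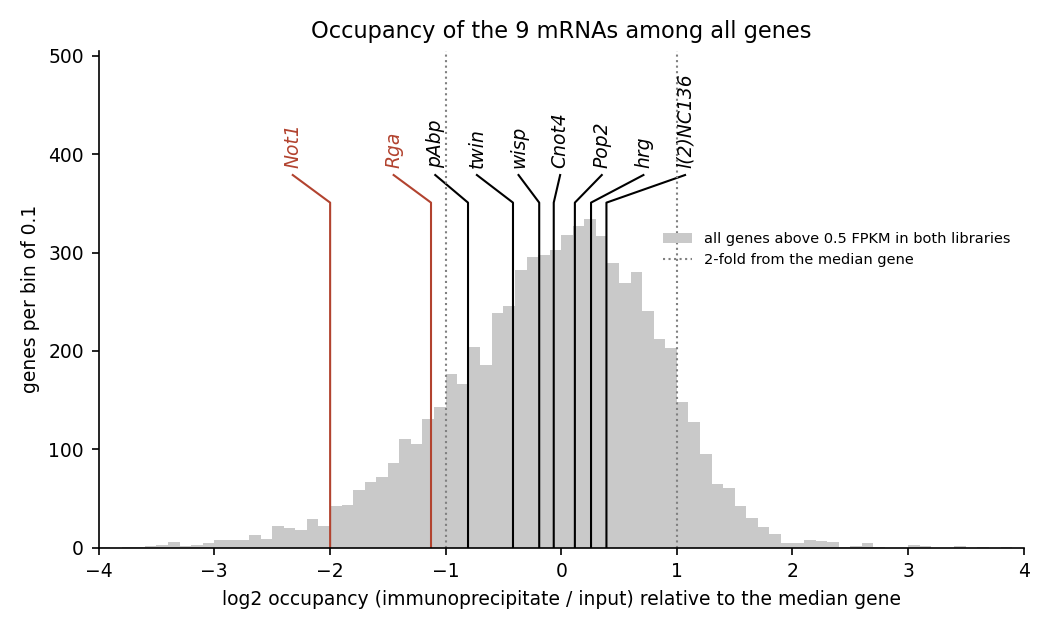
Histogram of log2 occupancy relative to the median gene for the 6886 genes that passed the minimum, in bins of 0.1, with a line for each of the 9 mRNAs and dotted lines at a 2-fold distance. *Not1* (−1.998) and *Rga* (−1.13) lie beyond the lower dotted line, and the other 7 lie between −0.81 and 0.39.

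The 9 genes share a long genomic span, from 4518 bp for *Pop2* to 25073 bp for *twin*, and occupancy was lower for protein-coding genes of longer span. The median was 0.42 for 2425 genes under 2000 bp, −0.44 for the 1165 genes from 4000 to 8000 bp, the bin that holds 7 of the 9, −0.44 for 565 genes between 8000 and 16000 bp and −0.62 for the 568 longest genes, of 16000 bp or more. Of these bins, 5.40%, 26.4%, 28.7% and 31.9% of genes were 2-fold below the median gene. Set against the protein-coding genes nearest in span, the median of the set was 0.25, and 6 of the 9 were above their neighbours. *l(2)NC136* was then at 0.91 and *hrg* at 0.71, above 85.4% and 80.0% of their neighbours, and *Not1* was at −1.55, with 6.59% of its neighbours lower. *Rga* was at −0.66 and *pAbp* at −0.32. With its median at 0.25, the position of the set below the median gene did not hold against genes of like span. *Not1* stayed more than 2-fold below. Centring on genes of similar input FPKM moved the set the other way, to a median of −0.47 with 2 above and 7 below. By the 2-fold rule against neighbours in span, none of the 9 was above and 1 was below, beside 7.33% above and 12.1% below of the 6846 genes with a known span. Span includes introns and is not transcript length, and the part of span in these values was not tested.

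**Figure D3:**
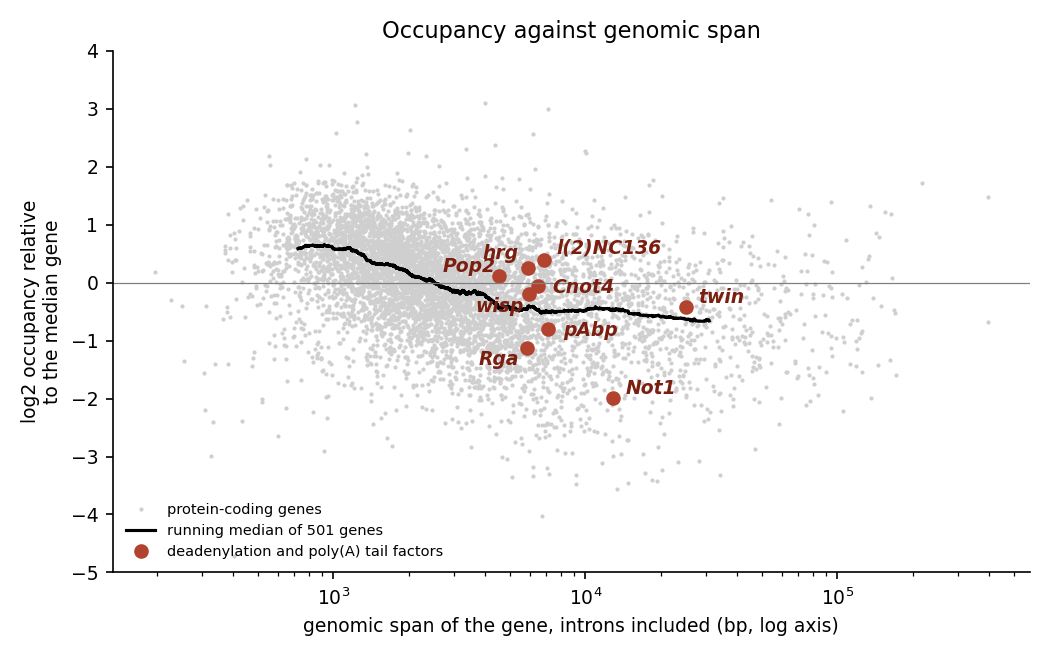
Log2 occupancy relative to the median gene against genomic span (bp, log axis) for protein-coding genes (grey), with their running median (black line) and the 9 mRNAs (red). *Pop2*, *hrg*, *l(2)NC136*, *Cnot4*, *wisp* and *twin* lie above the running median, and *pAbp*, *Rga* and *Not1* below it.

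The other subunits of CCR4-NOT did not share the position of the scaffold. *Rcd-1*, which encodes CAF40, a docking surface for RNA-binding proteins, had 149 FPKM in the immunoprecipitate and 104 FPKM in the input, at 0.18. *Not10* and *Not11* encode the pair that binds the N-terminal part of the scaffold. *Not10* had 33.0 FPKM in the immunoprecipitate and 28.4 FPKM in the input, at −0.11. *Not11* had 52.8 FPKM in the immunoprecipitate and 19.7 FPKM in the input, at 1.09, and was the only mRNA of the complex 2-fold above the median gene. It spans 1196 bp and was at 0.54 against genes of similar span. The level of *Not11* was 8.06 times that of *Not1* in the immunoprecipitate and 0.949 times in the input. Over the 9 subunits with *Cnot4* included, 1 was 2-fold above (11.1%) and 2 were 2-fold below (22.2%), with a median of −0.06. These shares are near the 9.48% above and 15.2% below among all genes. Against genes of similar span none was above and 1, *Not1*, was below, beside 7.33% above and 12.1% below among all genes.

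Among the mRNAs listed with other deadenylases, that of the catalytic subunit of the PAN2-PAN3 complex, which trims long tails, was also low. *PAN2* had 5.86 FPKM in the immunoprecipitate and 24.0 FPKM in the input, at −2.37, a factor of 5.17 below the median gene and the lowest of the 48 tail and processing mRNAs measured. *PAN3*, listed as CG11486, encodes the subunit that binds PABP and was at −1.02, named after its value was seen. *angel*, which encodes a CCR4-related protein, was at 0.63. Whether *angel* and *cu*, also in this list, encode active deadenylases was not tested. The 4 mRNAs of this list had a median of −0.20, with 2 below and none above by the 2-fold rule, beside 15.2% below and 9.48% above among all genes. Against genes of similar span 1 was below and 1 above, beside 12.1% below and 7.33% above among all genes. By that measure *PAN3* was at −0.45 and *cu*, named after its value was seen, at 1.07. *PAN3* was also inside the rule without centring (−0.69). Of 3 other tail polymerases above the minimum, none passed it in either direction, with *Trf4-2* at 0.44 and *Trf4-1* at −0.12. Of 4 mRNAs for other poly(A) binding proteins and PABP partners, *larp*, which encodes a PABP-binding protein, was the only one past the rule. It had 5.23 FPKM in the immunoprecipitate and 12.8 FPKM in the input, at −1.62. *Paip2*, which encodes an inhibitor of PABP, was the highest at 0.83, with 149 FPKM in the immunoprecipitate and 66.6 FPKM in the input, and it was past the rule at 1.26 against genes of similar span. The mRNAs for the PABP of the cytoplasm and for its inhibitor were thus 1.63 apart on the log2 scale.

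The mRNAs of proteins that bring the machinery to chosen transcripts had a lower median than the 9 tail factors. For *orb* and *orb2*, which encode the CPEB type factors that promote cytoplasmic polyadenylation, occupancies were −0.42 and −1.25, and against genes of similar span they were 0.15 and −0.71. By the 2-fold rule *orb2* was thus below, beside 15.2% of all genes, but not against genes of similar span. Its 2.87 FPKM in the immunoprecipitate and 5.41 FPKM in the input were the lowest of the 48 mRNAs. Of 10 genes for proteins that recruit deadenylases, 9 were above the minimum, with a median of −0.85, 3 below and none above by the 2-fold rule, beside 15.2% below and 9.48% above among all genes. *pum*, which encodes Pumilio, was the lowest at −1.59, and *nos*, which encodes its partner Nanos, the highest at 0.53. The other recruiters below the rule, named after their values were seen, were *cup* at −1.44 and *gw* at −1.28. Against genes of similar span none of the 3 passed the rule, with *pum* at −0.95, *cup* at −0.99 and *gw* at −0.84, and the median of the list was −0.18, beside 0.25 for the 9 tail factors. The difference between the lists was not tested.

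**Figure D4:**
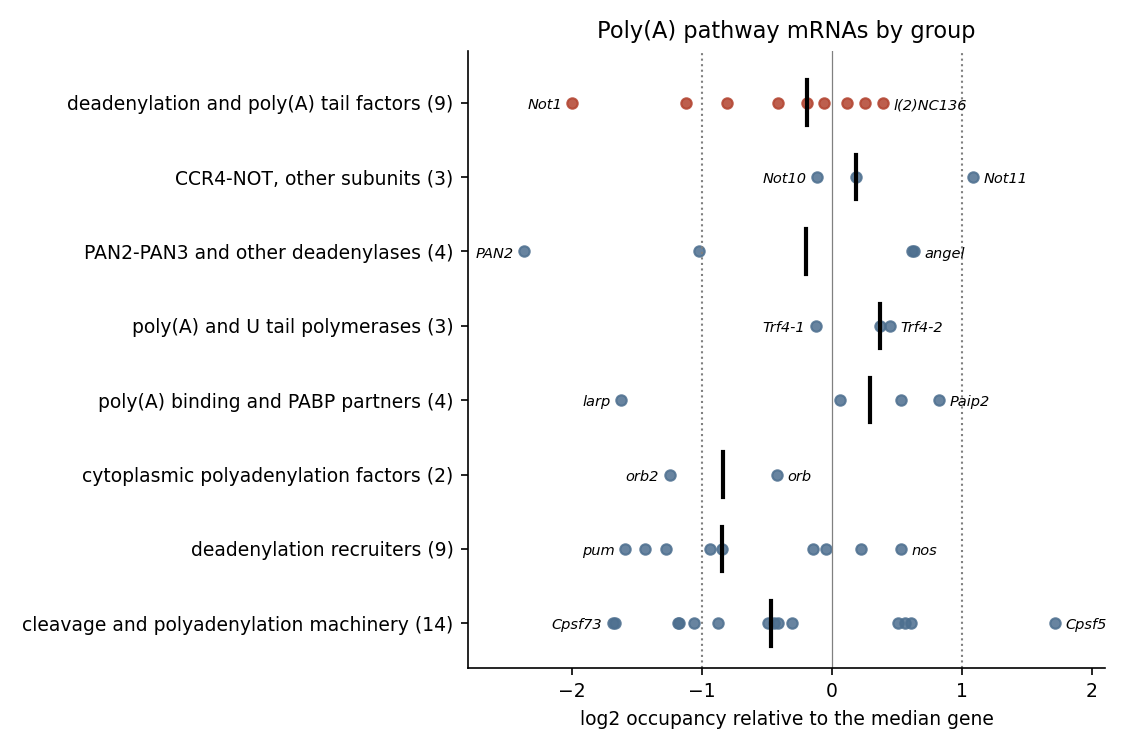
Log2 occupancy relative to the median gene for each mRNA above 0.5 FPKM in both libraries, by group (number of mRNAs in parentheses), with a black bar at the median of the group, dotted lines at a 2-fold distance, and the lowest and highest mRNA named. The 9 deadenylation and poly(A) tail factors (red) run from −1.998 to 0.39, and *PAN2* (−2.37) and *Cpsf5* (1.72) are the extremes of the plot.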

How the data were processed

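RNA from 1 ME31B immunoprecipitate and from 1 input lysate, diluted to 1.1 mg/ml before the immunoprecipitation, was sequenced after rRNA depletion with a stranded kit. According to the submitters' processing notes and the methods, the authors converted reads with bcl2fastq 2.17, mapped them with STAR 2.5.2a to dm6 and quantified genes with Cufflinks 2.2.1; R 3.1.2 was used downstream. The authors deposited FPKM, 1 value per gene and library, without a stated filter or scaling between libraries. For the annotation release, the use of strand and reads with several positions, the settings are not stated. Reads of overlapping genes may therefore be shared, and read depth is unknown. Beyond the members, the spans of *Cpsf5*, *Cpsf73*, *Cpsf6*, *cup*, *nos*, *pum*, *orb2*, *angel*, *Trf4-1* and *Trf4-2* also overlap other genes.

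Occupancy was computed from these FPKM with pandas 2.3.3, with the minimum of 0.5 FPKM applied in both libraries, no pseudocount, and the median gene as centre. Genes of similar span or input FPKM were the 501 nearest protein-coding genes. Of 6886 genes, 6846 matched RefSeq Release 6, which gave names, positions and spans. Named are all 9 members, both extremes of each list of 3 or more measured genes among those at 1 FPKM or more in the input, and every gene of a smaller list; others are marked. *Rcd-1*, *Gld2*, *BicC*, *CG1814*, *CG17768*, *LSm-4*, *CG45084* and the small nucleolar RNAs were also added after their values were seen. The members and lists were chosen with earlier results of these data known. A total of 11 alternatives was tried. Sequences were not used here.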

Additional observations from a re-analysis of the deposited data

How the results depend on the processing

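Occupancy is the ratio within 1 pair, the immunoprecipitate and its input. With only 1 pair no paired test was possible, and no result could be tested by leaving out a replicate. The median of the 9 mRNAs was −0.19, and it was 0.14 without a filter at pseudocount 0.5, 0.14 without centring, 0.067 with both libraries scaled to the same summed FPKM, 0.25 against genes of similar span and −0.47 against genes of similar input FPKM. No mRNA of the set was 2-fold above the centre under any of the 11 alternatives. The number 2-fold below it was 2, and it was 1, *Not1*, without a filter, without centring, at equal sums, against genes of similar span and with a 3-fold rule. It was 3, with *pAbp* added, against genes of similar input FPKM and with a 1.5-fold rule. Of the 39 other poly(A) pathway mRNAs above the minimum, 2 were above (5.13%) and 12 below (30.8%) by the 2-fold rule, 14 in all. Among all genes 9.48% were above and 15.2% below. That total was 9 without a filter (3 above, 6 below), 9 without centring (3 above, 6 below), 9 against genes of similar span (4 above, 5 below) and 6 with a 3-fold rule (1 above, 5 below). It was 10 at equal sums (3 above, 7 below), 15 against genes of similar input FPKM (2 above, 13 below) and 21 with a 1.5-fold rule (6 above, 15 below). The shares of all genes above and below were 8.66% and 3.93% without a filter, and 20.3% and 9.15% without centring. They were 7.33% and 12.1% against genes of similar span, and 1.79% and 5.95% with a 3-fold rule. At equal sums they were 17.4% and 10.4%, against genes of similar input FPKM 9.42% and 13.8%, and with a 1.5-fold rule 23.8% and 26.3%. Without a filter all 16863 genes entered, and 7110 of them were at 0 FPKM in both libraries. Those 7110 could not pass the rule, which lowers both shares. The centre was then 0, so this setting is close to the one without centring. Of 81 single values of the 9 mRNAs under 9 alternatives, 35 moved by at most 0.1 on the log2 scale and 46 by more, and neither *Not1* nor *Rga* changed sign. Among all genes 653 were above and 1048 below by the 2-fold rule, 38.4% of them on the upper side. These were 1461 and 662 without a filter (68.8%), 1395 and 630 without centring (68.9%), 1199 and 714 at equal sums (62.7%), 1639 and 1808 with a 1.5-fold rule and 123 and 410 with a 3-fold rule. Removing the centre shifts each value by 0.33 and leaves the distances between mRNAs as they are. Read depth is not known, so the precision of low values such as 6.55 FPKM for *Not1* could not be stated.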

Other observations

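The mRNAs of the nuclear machinery that cleaves pre-mRNA and starts the tail ranged over 3.41 on the log2 scale of occupancy, beside 2.39 for the 9 tail factors. A range widens with the number of genes, here 14 and 9. The standard deviations were 0.98 and 0.77, beside 0.92 for all 6886 genes. Of 14 genes, 1 was above and 5 were below by the 2-fold rule, with a median of −0.47, beside 9.48% above and 15.2% below among all genes. Against genes of similar span the median was −0.53, and 2 were above and 3 below, beside 7.33% above and 12.1% below among all genes. *Cpsf5*, listed as CG3689, encodes the small subunit of cleavage factor I and had 511 FPKM in the immunoprecipitate and 123 FPKM in the input, at 1.72, higher than 98.9% of genes. *Cpsf73*, which encodes the endonuclease that cuts the pre-mRNA, had 25.5 FPKM in the immunoprecipitate and 65.2 FPKM in the input, at −1.69. The other mRNAs below by the rule, named after their values were seen, were *Cpsf160* at −1.67, *Sym* at −1.18, *cbc* at −1.17 and *Fip1* at −1.06. Against genes of similar span *Sym* (−0.86) and *Fip1* (−0.99) were inside the rule and *Pcf11*, also named after its value was seen, was above it at 1.084. Without centring 1 was above and 2 were below, beside 20.3% above and 9.15% below among all genes. The large partner of *Cpsf5* in cleavage factor I, *Cpsf6*, listed as CG7185, was at −0.49 and also named after its value was seen.

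*BicC*, which encodes a germline RNA-binding protein that recruits CCR4-NOT through NOT3, was near 0 FPKM in both libraries and entered no count. Its span overlaps CG45084, which had 139 FPKM in the immunoprecipitate and 179 FPKM in the input. How reads were divided between these genes was not tested.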
